A study of Mus musculus with 6 samples.

Results

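Dense clusters of open chromatin far from gene starts were taken from the ATAC-seq peak lists of mouse white blood cells. Peaks of the 6 libraries on 19 autosomes that shared at least 1 bp were merged into 60298 regions, of which 23013 had a peak in every library. Among these shared regions, 8312 were distal, with every summit more than 3.0 kb from any annotated transcript start of GENCODE on GRCm39. Distal regions were chained where the gap to the next one was at most 12.5 kb, and the members described here are the 211 regions in the 47 chains that held at least 4. The members were chosen by the presence of a peak in all 6 libraries and by position, so regions missing from any library could not be members, and the number of members in a chain is a description and not a finding. There were 34 chains with 4 members, 8 with 5, 3 with 6, and 1 each with 8 and 9.

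Libraries of 3 control samples were compared with 3 of the HADA group, which stands for high-altitude de-acclimatization. The animals were male C57BL/6j mice without a genetic change named in the sources. HADA mice had been kept in a hypobaric chamber that simulates high altitude and were then returned to normal oxygen, while control mice stayed in normoxia. Blood was freed of red cells by lysis and the white cells were not sorted, so each library is a mixture of cell types (the labels and the study's methods describe leukocytes of lysed blood, though its results speak of mononuclear cells) and its composition and the accessibility per cell cannot be told apart. The labels name neither cages nor collection days, and they do not say that each library is a separate mouse, so p-values here measure the spread between these libraries.

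Enhancers are stretches of DNA away from gene starts whose bound transcription factors raise the transcription of a gene, and in open form they are cut readily by the Tn5 transposase of ATAC-seq. Dense groups of them, often called super-enhancers or stretch enhancers, are known for lying at genes that define a cell type, with lineage factors such as PU.1 (the myeloid and B cell factor encoded by Spi1), RUNX, ETS and C/EBP proteins in blood cells. The chains are candidates for such clusters by position only, because no histone mark or factor binding was measured.

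The sequences of 6 members on which the comparisons turn are printed first, as the plus strand of GRCm39 over 201 bases centred on the summit of the tallest peak. Capitals mark the consensus letters of 16 factors searched on both strands, and a match is a description of letters, not a bound site. The letters found here were GAGGAAG for PU.1, TTGCNNAA for C/EBP, GGGNGTG for KLF factors, CTTTGAT for TCF7 and CAGGTG for E2A, which 12.05%, 7.59%, 20.9%, 1.89% and 14.9% of all shared regions hold in a window of this length. In the chains at Thbs1 and Trib1 every member was lower in HADA, the chains at Ets1 and Ppp1r16b were the 2 called higher at a limma adjusted p under 0.05, and the Pik3ap1 chain held members that moved in opposite directions.
Thbs1 chain, member 3: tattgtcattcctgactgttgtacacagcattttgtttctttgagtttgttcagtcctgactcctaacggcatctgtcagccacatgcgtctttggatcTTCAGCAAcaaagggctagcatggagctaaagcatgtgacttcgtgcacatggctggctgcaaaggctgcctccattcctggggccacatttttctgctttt
Trib1 chain, member 4: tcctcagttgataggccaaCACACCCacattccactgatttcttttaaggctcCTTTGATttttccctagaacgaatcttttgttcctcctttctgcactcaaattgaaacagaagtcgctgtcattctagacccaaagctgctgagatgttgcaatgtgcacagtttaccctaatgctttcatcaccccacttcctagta
Ets1 chain, member 2: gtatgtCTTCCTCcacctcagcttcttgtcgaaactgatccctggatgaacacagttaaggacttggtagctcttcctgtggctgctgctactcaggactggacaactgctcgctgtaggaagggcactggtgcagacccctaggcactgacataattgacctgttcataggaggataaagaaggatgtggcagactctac
Ppp1r16b chain, member 1: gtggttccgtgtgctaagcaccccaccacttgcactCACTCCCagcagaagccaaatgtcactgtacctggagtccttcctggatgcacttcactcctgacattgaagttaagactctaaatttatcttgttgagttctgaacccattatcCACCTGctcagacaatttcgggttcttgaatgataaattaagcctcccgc
Pik3ap1 chain, member 1: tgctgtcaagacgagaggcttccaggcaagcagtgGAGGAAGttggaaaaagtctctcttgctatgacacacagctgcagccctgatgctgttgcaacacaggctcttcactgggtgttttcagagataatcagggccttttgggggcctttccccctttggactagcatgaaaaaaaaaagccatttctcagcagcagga
Pik3ap1 chain, member 5: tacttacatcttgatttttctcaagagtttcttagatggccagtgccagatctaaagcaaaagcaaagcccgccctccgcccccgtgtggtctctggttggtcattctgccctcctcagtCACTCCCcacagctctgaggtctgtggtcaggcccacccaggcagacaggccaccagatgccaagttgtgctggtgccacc
All 6 lie in introns of annotated transcripts, those at Thbs1 and Trib1 outside the named gene. These windows lie at chr2:117826914-117827114, chr15:59616406-59616606, chr9:32642482-32642682, chr2:158548993-158549193, chr19:41309711-41309911 and chr19:41343005-41343205. C/EBP letters stand in the Thbs1 member, KLF and TCF7 letters in the Trib1 member, PU.1 letters in the Ets1 member and in the first Pik3ap1 member, KLF and E2A letters in the Ppp1r16b member, and KLF letters in the last Pik3ap1 member.

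The measure throughout is the relative height, the number of fragments stacked at the summit of the tallest peak of a region in a library, divided by that number at the median shared region of the same library. A relative height of 1 is thus a median shared region. Differences are log2, HADA minus control, with the standard error (SE) of the limma fit over 3 libraries a group. The height of a chain is the geometric mean over its members. Median pileups over the members lay between 54 and 85 fragments in the 6 libraries, and the lowest pileup of any member was 9, so no member was at a count of 0. As a gauge of depth, the genome background pileup was 1.69 to 2.05 for control and 1.99 to 2.34 for HADA.

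Heights at the starts of cell type marker genes moved with the groups. Summed over the 11 B cell marker genes of a list of 20 that had a shared region at the start, the relative height ran from 5 to 12 (control) and from 22.7 to 24.1 (HADA), with 10 starts called higher. The 13 T cell starts of 23 summed to 11.4 to 13.7 (control) and 16.8 to 18.9 (HADA), with 5 called higher and 1 lower. Neutrophil starts (7 of 17) summed to 8.04 to 18.0 and 2.83 to 4.36, with 6 called lower, and monocyte starts (10 of 13) to 17.6 to 28.1 and 12.04 to 14.6, with 8 called lower. Control 3 stood apart within its group, with the lowest B cell sum and the highest neutrophil and monocyte sums. Natural killer cell starts (4 of 11) summed to 1.48 to 2.10 and 1.87 to 2.48, and regulatory T cell starts (2 of 6) to 0.780 to 0.964 and 1.10 to 1.19. The eosinophil and basophil start (1 of 10) stood at 0.678 to 0.800 and 0.410 to 0.564, and erythroid and platelet starts (3 of 13) summed to 5.25 to 5.58 and 6.69 to 7.76. Leukocyte regulators (16 of 19) summed to 29.3 to 37.96 and 31.4 to 33.6, with 4 called higher and 1 lower, and genes of the NRF2 antioxidant system (12 of 14) to 30.3 to 55.8 and 23.4 to 27.3, with 5 called lower. Of the lists with up to 4 starts, 1 regulatory T cell start and 1 erythroid or platelet start were called higher and the eosinophil and basophil start lower. Of all shared regions that are not distal, 19.3% were called higher and 12.8% lower. None of 8 non-blood genes had a shared region at the start. The shares of the cell types were not measured, and the part of these markers in the differences below was not tested. A chain lay at 3 genes of these lists, Bach2 (B cell), Prkcq (T cell) and Ets1 (leukocyte regulator).

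Among the 211 members, limma at a Benjamini-Hochberg adjusted p under 0.05 over all 23013 shared regions called 31 higher and 67 lower in HADA, while 113 were not called. The calls made up 14.7% and 31.8% of the members. Over all shared regions 17.5% were called higher and 23.4% lower, and over the other shared distal regions 14.4% and 42.5%, so the share of higher calls among members was near that background and the share of lower calls lay between that of all shared and that of other distal regions. With the summit bases required to be found once, 14.2% of 183 members were higher and 38.3% lower. These shares were near the 14.8% and 37.5% of all shared distal regions under that setting. The median log2 difference, HADA minus control, was −0.28 over the members, −0.61 over the other 8101 distal regions and 0.07 over the shared regions nearer to starts. The groups did not overlap at 45 members with HADA above and at 93 with HADA below, which is 21.3% and 44.1% of members, against 29.2% and 31.6% of all shared and 20.5% and 49.2% of the other distal regions. Higher members ranged from 0.49 to 1.40 on the log2 scale over 21 chains and lower members from −2.39 to −0.56 over 30 chains.

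The balance of directions depended on how libraries were scaled. Dividing by the background pileup in place of the median shared region moved the median shared region itself to a log2 difference of 0.35 from −0.04, and then 49 members were called higher and 44 lower (23.2% and 20.9%, against 24.4% and 34% of all shared distal regions and 31.7% and 17.4% of all shared regions). Centring on the median distal region gave 53 and 39 (25.1% and 18.5%, against 26.2% and 31.9%), and quantile normalization 42 and 53 (19.9% and 25.1%, against 19.5% and 28%). The balance thus moved with the scaling in all shared distal regions and not in the members alone. The share of higher calls among called members was 31.6% with the main scaling and 52.7%, 57.6% and 44.2% with these. All directions below are therefore relative to the median shared region. Background scaling moves every difference by the same amount, here upward, so it can remove lower calls but hardly tests higher ones. Under it 44 of the 67 lower calls and all 31 higher calls were also made. Fewer members were called with a HADA library left out, as in all shared distal regions. Without HADA 1 there were 12 higher and 45 lower (5.69% and 21.3%, against 7.30% and 23.9% of shared distal regions), without HADA 2 there were 3 and 19 (1.42% and 9%, against 2.95% and 13.5%), and without HADA 3 there were 9 and 35 (4.27% and 16.6%, against 5.74% and 27.4%). Without control 3, the library that stood apart, 28 and 60 were called (13.3% and 28.4%, against 14% and 38.5%).

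**Figure D1:**
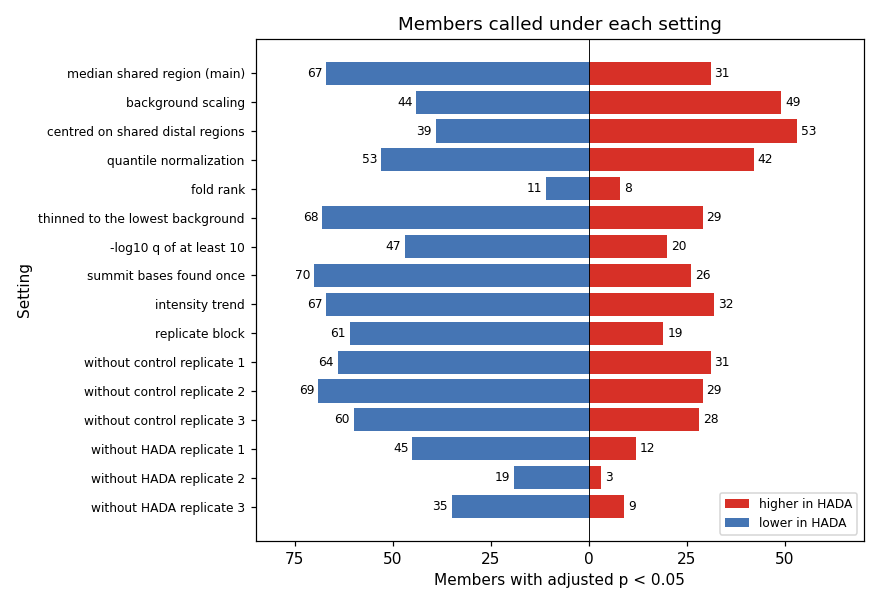
Number of the 211 members called higher (red, to the right) and lower (blue, to the left) in HADA at a limma adjusted p under 0.05, for the main scaling on the median shared region and each alternative. The main split of 31 and 67 turns to 49 and 44 under background scaling and falls to 3 and 19 without HADA replicate 2, where all shared distal regions go from 14.4% higher and 42.2% lower to 24.4% and 34%, and to 2.95% and 13.5%.

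At the level of chains, 14 of 47 were lower and 2 were higher (limma adjusted p under 0.05 over all 7208 chains of shared distal regions, those of 1 region included). That is 29.8% and 4.26%, against 44.5% and 12.1% of all chains. With summit bases found once, 38.6% of 44 chains were lower and 4.55% higher, against 38.8% and 13.4% of all chains. The groups did not overlap in 25 chains with HADA below control and in 9 with HADA above, which is 53.2% and 19.1%, near the 50.7% and 20.1% of all chains. The chains at Thbs1, Trib1, Cmip, Fabp5 and Apba2 were called lower under all 3 other scalings and without any 1 library. Each of the other 9 lower chains lost its call without HADA 2, with adjusted p from 0.0589 to 0.143 and differences of −1.08 to −0.57, and 7 and 8 lower chains lost it without HADA 1 and HADA 3. Without control 3, the calls at Ankrd33b, Cdkn2aipnl, Fyb1 and Trim8 were lost, with differences of −0.83 to −0.49. Under background scaling 8 lower chains lost their call, at Iqgap1 (−0.72), Plek (−0.57), Itpkb (−0.42), Cdkn2aipnl (−0.42), Tpcn1 (−0.40), Rcsd1 (−0.35), Trim8 (−0.26) and Fyb1 (−0.19), with limma adjusted p from 0.0573 to 0.617, and centred on distal regions Ankrd33b lost its call as well. Ranks of the deposited fold, which is taken over a local background, called 0 of 47 chains by limma, with 3 higher and 2 lower at an unadjusted p under 0.05 and a smallest adjusted p of 0.0610.

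**Figure D2:**
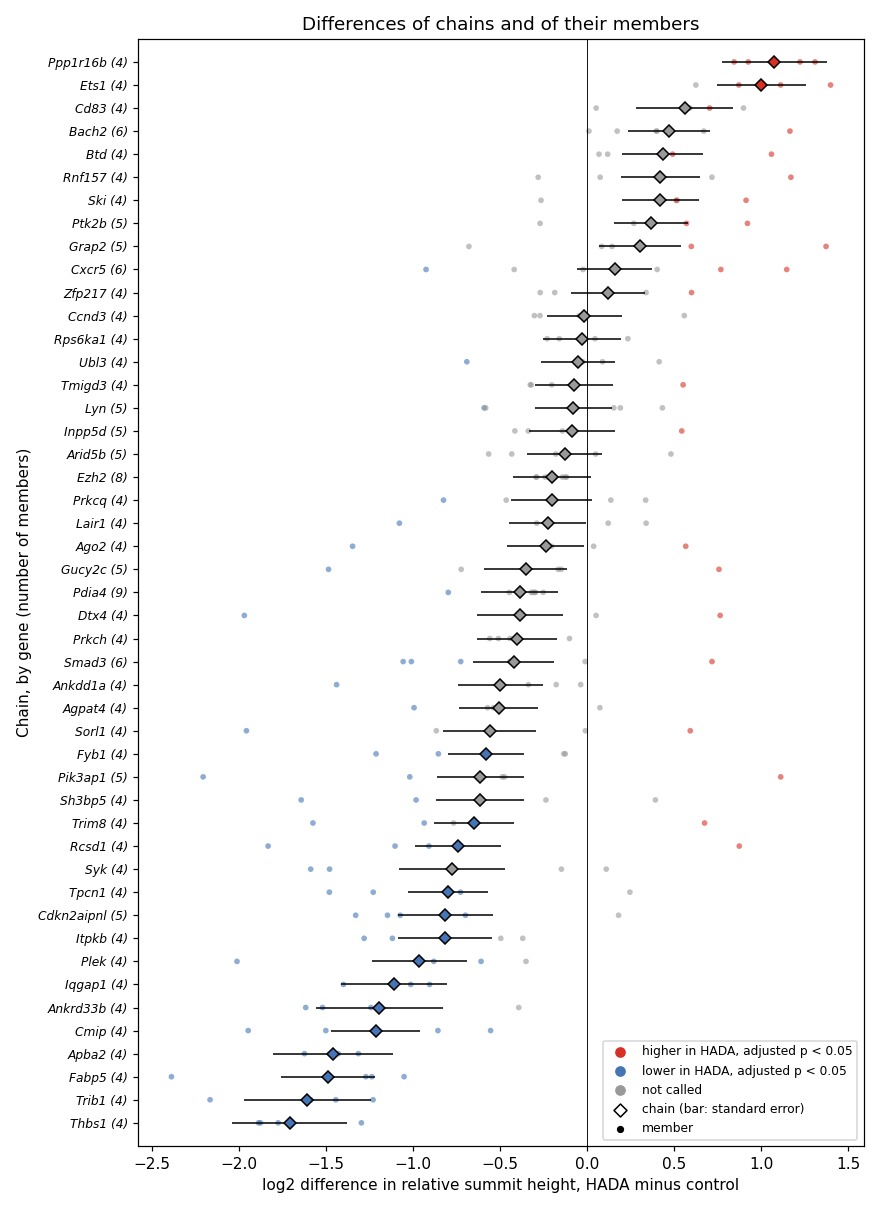
Log2 difference in relative height, HADA minus control, for the 47 chains (diamonds with standard error) and their members (dots), ordered by chain, with the number of members in brackets. Red and blue mark limma adjusted p under 0.05. The Thbs1 chain is lowest at −1.71 and the Ppp1r16b chain highest at 1.07, and blue and red dots share a line where members of a chain were called in opposite directions.

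The chains with the widest decrease in HADA lay at Thbs1, which encodes the secreted glycoprotein thrombospondin 1, and at Trib1, a pseudokinase that brings C/EBPα to degradation. Both lie outside the body of the gene: the Thbs1 members are 103 to 134 kb upstream of its start and the Trib1 members 73.1 to 96.4 kb downstream of its start. The Thbs1 chain had relative heights of 1.72, 1.63 and 3.26 (control) and 0.849, 0.590 and 0.522 (HADA). The log2 difference was −1.71 ± 0.33 (SE, limma adjusted p = 0.00813). At the Trib1 chain, the heights were 2.28, 2.16 and 5.01 (control) and 1.26, 0.914 and 0.756 (HADA), and the difference was −1.61 ± 0.36 (SE, limma adjusted p = 0.0104). In both chains the highest control value was that of control 3 and the groups did not overlap. The neutrophil and monocyte start sums were likewise highest in control 3 and lower in each HADA library than in any control, and their part in these values was not tested. All 4 members of each were called lower. The tallest Thbs1 member, number 3, which carries the C/EBP letters shown above, had heights of 3.54, 3.20 and 6.88 (control) and 1.52, 1.11 and 0.928 (HADA), and the difference was −1.88 ± 0.32 (SE, limma adjusted p = 0.00944). Trib1 member 4 differed most within its chain, with heights of 2.53, 2.13 and 5.56 (control) and 1.02, 0.582 and 0.554 (HADA) and a difference of −2.17 ± 0.39 (SE, limma adjusted p = 0.0102).

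The Cmip chain lies within the body of Cmip, the gene of the c-Maf inducing protein, 11.2 to 31.5 kb from its start. The Fabp5 chain lies 9.14 to 35.5 kb upstream of Fabp5, a fatty acid binding protein. Heights of the Cmip chain were 1.57, 1.48 and 2.27 (control) and 0.876, 0.690 and 0.695 (HADA). On the log2 scale it fell by 1.22 ± 0.26 (SE, limma adjusted p = 0.00915). The Fabp5 chain stood at 0.580, 0.997 and 0.886 (control) and 0.288, 0.254 and 0.317 (HADA), a difference of −1.49 ± 0.27 (SE, limma adjusted p = 0.00775). In both, all 4 members were called lower. Fabp5 member 2 held the widest difference of all members, −2.39 ± 0.41 (SE, limma adjusted p = 0.00941), with heights of 1.19, 1.18 and 2.92 (control) and 0.468, 0.241 and 0.253 (HADA). Summit bases of the Fabp5 members 1 and 3 have 2 exact copies in the genome, and with the 50 summit bases required to be found once, the remaining Fabp5 members still gave −1.90 (limma adjusted p = 0.00453).

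The Apba2 chain, 11.9 to 32.8 kb upstream of the start of the adaptor gene Apba2, consisted of repeated sequence. Its 4 members had 6, 7, 145 and 164 exact copies of their summit bases, so their reads cannot be placed at this locus and the values cannot be assigned to it. Its heights were 0.334, 0.748 and 0.392 (control) and 0.136, 0.155 and 0.222 (HADA), with control 2 highest, and the difference was −1.46 ± 0.35 (SE, limma adjusted p = 0.0114). The groups did not overlap and all 4 members were called lower.

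**Figure D3:**
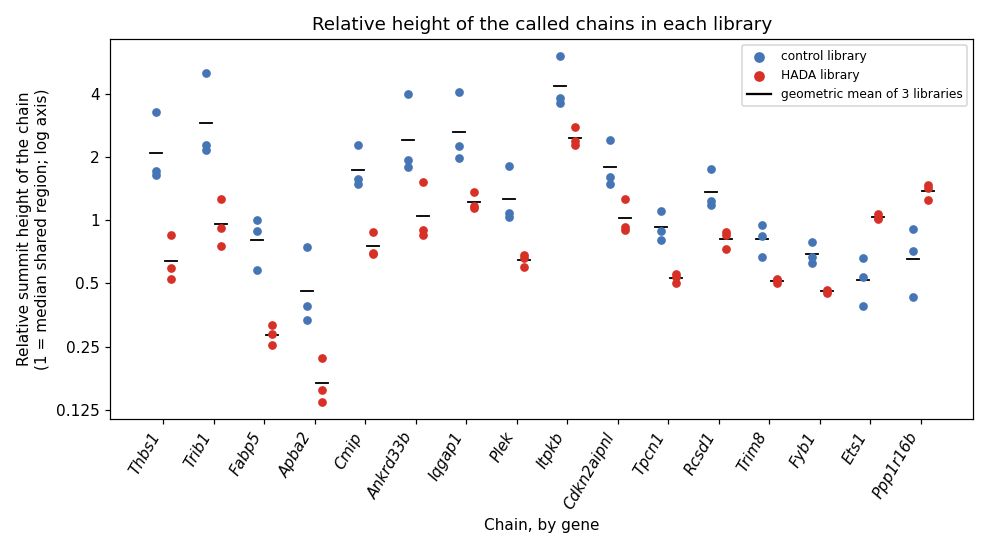
Relative height of the 16 called chains in each library (log axis, blue control, red HADA, black lines the geometric mean of 3), ordered by difference. In the 14 chains on the left every HADA point lies below every control point, and at Ets1 and Ppp1r16b every HADA point lies above.

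The 2 chains called higher were those at Ets1, a transcription factor of lymphoid cells, and at Ppp1r16b, a regulatory subunit of protein phosphatase 1. Every member of both lies within the gene body, 84.3 to 111 kb and 41.8 to 69.9 kb from the start. The Ets1 chain had heights of 0.661, 0.536 and 0.390 (control) and 1.01, 1.03 and 1.07 (HADA) and rose by 1.00 ± 0.26 (SE, limma adjusted p = 0.0136). For the Ppp1r16b chain they were 0.906, 0.713 and 0.432 (control) and 1.25, 1.42 and 1.47 (HADA), and it rose by 1.07 ± 0.30 (SE, limma adjusted p = 0.0172). No library of a group reached the other group in either chain. The lowest control value was that of control 3 in both, as for the B cell and T cell start sums, which were also apart between the groups and whose part in these values was not tested. Of the Ets1 members 3 of 4 were called higher, member 2 with 0.458, 0.400 and 0.320 (control) and 0.894, 0.772 and 0.855 (HADA) and a difference of 1.11 ± 0.18 (SE, limma adjusted p = 0.00904). All 4 Ppp1r16b members were called higher, between 0.84 and 1.31. Under background scaling, which raises every difference alike and so hardly tests a higher call, they were at 1.40 and 1.47 and called. Both calls were lost without HADA 2, at 1.01 and 1.05 (limma adjusted p = 0.0536 and 0.0634). The Ppp1r16b call was also lost without HADA 3, at 1.03 (limma adjusted p = 0.0522), and by rank of the fold both were lost, at 0.49 and 0.21 normal scores (limma adjusted p = 0.0870 and 0.393).

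**Figure D4:**
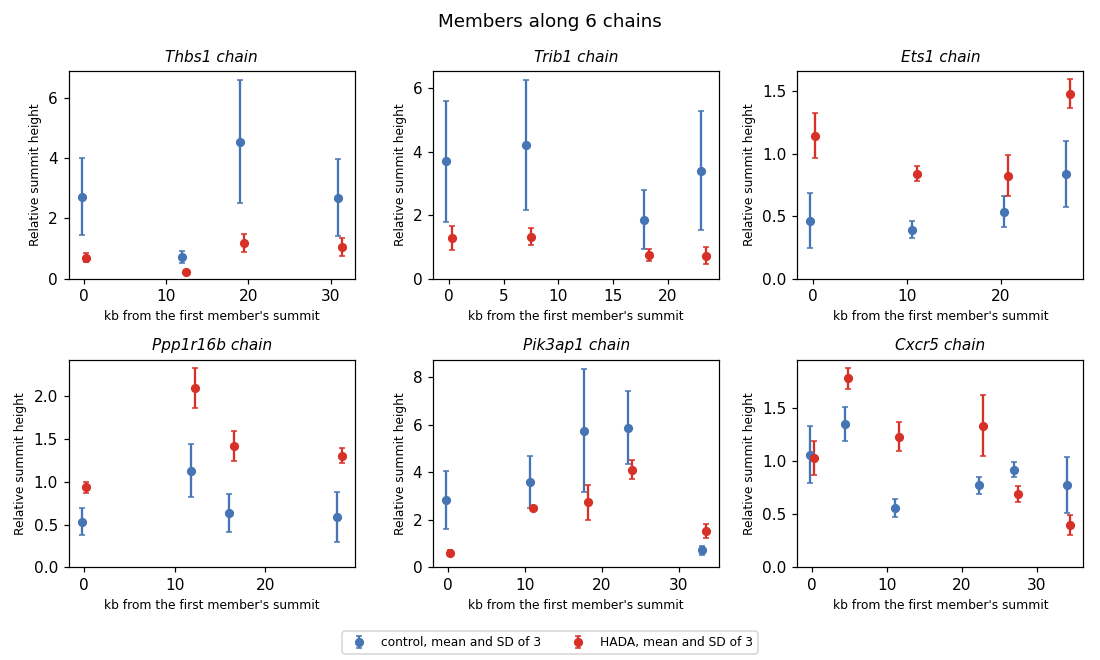
Relative height of each member (mean and SD of 3 libraries, blue control, red HADA) against the distance in kb from the first member's summit in 6 chains. In the Thbs1 and Trib1 chains every member is lower in HADA, in the Ets1 and Ppp1r16b chains the HADA means are higher, and in the Pik3ap1 and Cxcr5 chains members lie on both sides.

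Bach2, a repressor that keeps B and T cells from final differentiation, holds 6 members 97.2 to 127 kb into the gene, with chain heights of 0.699, 0.619 and 0.489 (control) and 0.773, 0.866 and 0.839 (HADA). The groups did not overlap, but the difference of 0.47 ± 0.23 (SE, limma adjusted p = 0.112) did not pass the test. Within it, member 4 alone was called, with heights of 0.847, 0.836 and 0.480 (control) and 1.60, 1.56 and 1.54 (HADA) and a rise of 1.16 ± 0.24 (SE, limma adjusted p = 0.0124). At Ski, a co-repressor of SMAD signalling, 2 of 4 members were called higher, with the chain at 0.42 ± 0.22 (SE, limma adjusted p = 0.129). The chain at Cd83, a surface protein of activated B and dendritic cells, stood at 1.49, 1.54 and 0.874 (control) and 1.65, 1.99 and 1.96 (HADA), which was 0.56 ± 0.28 (SE, limma adjusted p = 0.112). Under background scaling Bach2, Cd83, Ski, Btd (biotinidase), Rnf157 (a ubiquitin ligase) and Ptk2b were called higher too, at 0.86, 0.96, 0.81, 0.83, 0.81 and 0.76, as they were centred on distal regions.

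The chain at Cxcr5, the receptor that draws B cells and follicular helper T cells into follicles, has 6 members, 5 of them in the gene body. As a chain it was not called, at 0.16 ± 0.21 (SE, limma adjusted p = 0.544), but its members differed. Member 3 rose by 1.15 ± 0.19 (SE, limma adjusted p = 0.00894) and member 4 by 0.77 ± 0.21 (SE, limma adjusted p = 0.0246), whereas member 6, which carries PU.1 letters, fell: its heights were 0.627, 0.618 and 1.08 (control) and 0.5, 0.316 and 0.386 (HADA), a difference of −0.93 ± 0.27 (SE, limma adjusted p = 0.0317). Smad3, a transducer of TGF-β signals, likewise held 1 member called higher and 3 called lower among 6. The tallest, member 6, had 4.86, 4.35 and 8.70 (control) and 3.21, 2.63 and 2.41 (HADA) and a difference of −1.06 ± 0.28 (SE, limma adjusted p = 0.0224), and member 1 had 1.05, 0.727 and 0.580 (control) and 1.13, 1.39 and 1.25 (HADA) and 0.72 ± 0.24 (SE, limma adjusted p = 0.0447).

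Among the other chains called lower, Itpkb, an inositol trisphosphate kinase, held a tall chain at 3.81, 3.59 and 6.03 (control) and 2.78, 2.29 and 2.38 (HADA), which fell by 0.82 ± 0.27 (SE, limma adjusted p = 0.0296). Plek encodes pleckstrin, the main substrate of protein kinase C in platelets, and its chain was lower, at −0.96 ± 0.27 (SE, limma adjusted p = 0.0180), with 3 of 4 members called. Plek member 4 had 1.31, 1.49 and 2.90 (control) and 0.564, 0.468 and 0.325 (HADA), a difference of −2.01 ± 0.34 (SE, limma adjusted p = 0.00920). Iqgap1, a scaffold of the actin skeleton, had all 4 members called lower and a chain difference of −1.11 ± 0.30 (SE, limma adjusted p = 0.0162). At Fyb1, an adaptor of T cells, neutrophils and platelets, the chain was at 0.623, 0.665 and 0.785 (control) and 0.465, 0.451 and 0.461 (HADA), and the difference of −0.58 ± 0.22 (SE, limma adjusted p = 0.0471) had the largest adjusted p that passed. This call was lost without any 1 of the 6 libraries. By rank of the fold the Itpkb, Plek and Iqgap1 chains were at 0.12, 0.23 and 0.0071 normal scores, on the other side of 0, and none was called.

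The kinase Syk, with −0.78 ± 0.30 (SE, limma adjusted p = 0.0534), was not called as a chain, though 2 of its 4 members were lower. The same held for Sh3bp5, an inhibitor of the kinase BTK, at −0.62 ± 0.25 (SE, limma adjusted p = 0.0618), where both called members carry C/EBP letters. The Syk chain was called lower under 6 of 16 alternatives, at −1.52 (limma adjusted p = 0.0118) with a −log10 q of at least 10, and the Sh3bp5 chain under 3. Chains at the phosphatase Inpp5d (SHIP1), at the kinases Lyn, Prkcq and Prkch, and at the adaptor Grap2 were not called, with differences of −0.09, −0.08, −0.21, −0.40 and 0.30. With a −log10 q of at least 10 the Lyn and Prkcq chains were called lower, at −0.57 and −0.63 (limma adjusted p = 0.0360 and 0.0374), and centred on distal regions the Grap2 chain was called higher, at 0.71 (limma adjusted p = 0.0429). Inside them single members differed: Inpp5d member 4 rose by 0.54 ± 0.15 (SE, limma adjusted p = 0.0274) and Prkcq member 2 fell, with −0.83 ± 0.25 (SE, limma adjusted p = 0.0321). Grap2 member 4 had heights of 0.407, 0.345 and 0.300 (control) and 0.809, 0.975 and 0.928 (HADA) and rose by 1.37 ± 0.18 (SE, limma adjusted p = 0.00778), the smallest adjusted p among the higher members. In Ptk2b, the kinase PYK2, 2 of 5 members were higher, and both carry PU.1 letters.

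The other chains called lower began with Tpcn1, an ion channel of endosomes and lysosomes, at −0.80 ± 0.23 (SE, limma adjusted p = 0.0188). Rcsd1, a protein that binds the actin capping protein CapZ, was at −0.74 ± 0.25 (SE, limma adjusted p = 0.0308) and Trim8, a ubiquitin ligase, at −0.65 ± 0.23 (SE, limma adjusted p = 0.0384). The Trim8 value moved to −0.11 (limma adjusted p = 0.617) with a −log10 q of at least 10 and its call held under 4 of 16 alternatives, and 1 of its 4 members has 203 copies of its summit bases. The chains at Ankrd33b and Cdkn2aipnl were at −1.19 ± 0.37 (SE, limma adjusted p = 0.0238) and −0.81 ± 0.27 (SE, limma adjusted p = 0.0322). The Cdkn2aipnl chain lies 28.6 to 51.1 kb upstream of that gene and was named by the nearest start only. Chains at Arid5b, Rps6ka1, Ccnd3 and Prkch, besides the repeat chain at Ezh2, had 0 members called. The remaining chains, at Agpat4, Ankdd1a, Lair1, Ubl3, Tmigd3 and Zfp217, were not called and held 1 called member each, which was lower at the first 4 and higher at the last 2.

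In 9 of the 47 chains some members were called higher and others lower, while in 6 all members were lower and in 1 all were higher. The widest gap was in Pik3ap1, an adaptor that links B cell and Toll-like receptors to PI3 kinase. Member 1, with PU.1 letters, had heights of 2.27, 2.02 and 4.24 (control) and 0.734, 0.544 and 0.494 (HADA) and fell, with −2.21 ± 0.30 (SE, limma adjusted p = 0.00820). Member 5 had heights of 0.898, 0.727 and 0.520 (control) and 1.34, 1.86 and 1.37 (HADA) and rose by 1.11 ± 0.24 (SE, limma adjusted p = 0.0140). No library of a group reached the other at either member, and both sequences are printed above. The Pik3ap1 chain as a whole was not called, at −0.62 ± 0.25 (SE, limma adjusted p = 0.0605), but was called lower under 4 of 16 alternatives, with a −log10 q of at least 10, summit bases found once, an intensity trend and without control 2.

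In the Dtx4 chain, at a Notch pathway ubiquitin ligase, member 1 was at −1.97 ± 0.30 (SE, limma adjusted p = 0.00867) and member 3 at 0.76 ± 0.22 (SE, limma adjusted p = 0.0299). In Rcsd1 member 2, with 1.59, 1.62 and 3.42 (control) and 0.660, 0.570 and 0.518 (HADA), was at −1.83 ± 0.31 (SE, limma adjusted p = 0.00914) and member 4, with 1.76, 1.67 and 1.24 (control) and 2.68, 3.00 and 2.80 (HADA), at 0.87 ± 0.19 (SE, limma adjusted p = 0.0131). Sorl1, a sorting receptor, had member 2 at −1.96 ± 0.38 (SE, limma adjusted p = 0.0111) beside member 1 at 0.59 ± 0.15 (SE, limma adjusted p = 0.0194). The gaps of Gucy2c, Trim8 and Ago2 ran from −1.49 to 0.76, −1.58 to 0.67 and −1.35 to 0.57. Over all members the SD of the log2 differences was 0.82, within chains it was 0.61 and between chain means 0.64. In 19 chains all members had differences of one sign. The tallest member stood 3.28 times above the lowest of its chain in the median chain and 15.4 times at Ankdd1a, and in 8 of 47 chains the tallest member was also the one with the widest difference.

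The chains with the most members are a tandem array on chromosome 6 between Ezh2, a histone methyltransferase, and Pdia4, a protein disulfide isomerase. The Ezh2 chain of 8 members (chr6:47631787-47662998) and the Pdia4 chain of 9 (chr6:47716651-47749687) are separated by 53.7 kb, of which 50 kb are unknown bases in GRCm39. Of the 17 members, 15 have 16 exact copies of their 50 summit bases, and summits of the Ezh2 chain are spaced 4285 to 4369 bp apart. A summit core of each chain is shown because both hold the same run of 38 bases, in capitals.
Ezh2 chain, member 1 core: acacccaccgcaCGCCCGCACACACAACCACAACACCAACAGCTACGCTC
Pdia4 chain, member 4 core: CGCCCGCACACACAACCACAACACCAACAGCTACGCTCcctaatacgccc
They lie at chr6:47632148-47632197 and chr6:47729991-47730040, plus strand. The RefSeq gene table for GRCm38.p6 lists Rn4.5s, the gene of the small 4.5S RNA, among 14 genes between Ezh2 and Pdia4, 6 of them protein-coding models, whereas GENCODE lists 13 there and 0 protein-coding. These members are thus distal under GENCODE, and the RefSeq models were not used in the rule. Their mean relative height over the libraries was at least 8.31, against at most 5.19 for any other member. Library by library the array members stood at 6.87 to 26.5, above every other member in 5 libraries, but in control 3 Itpkb member 4 reached 10.3, above the lowest array member there, at 10.1. The local background there was 36.0 to 101 times the genome background. The Ezh2 chain stood at 9.47, 9.41 and 11.5 (control) and 9.82, 8.37 and 8.17 (HADA) and the Pdia4 chain at 16.1, 17.7 and 19.8 (control) and 14.97, 13.4 and 12.6 (HADA), with differences of −0.20 ± 0.23 (SE, limma adjusted p = 0.452) and −0.39 ± 0.22 (SE, limma adjusted p = 0.159). Of the 17 members 1 was called, member 6 of the Pdia4 chain, which has 9 copies of its summit bases, at −0.80 ± 0.27 (SE, limma adjusted p = 0.0449). Reads cannot be placed on 1 copy, so the values of single members and of either chain cannot be assigned to that place in the array.

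**Figure D5:**
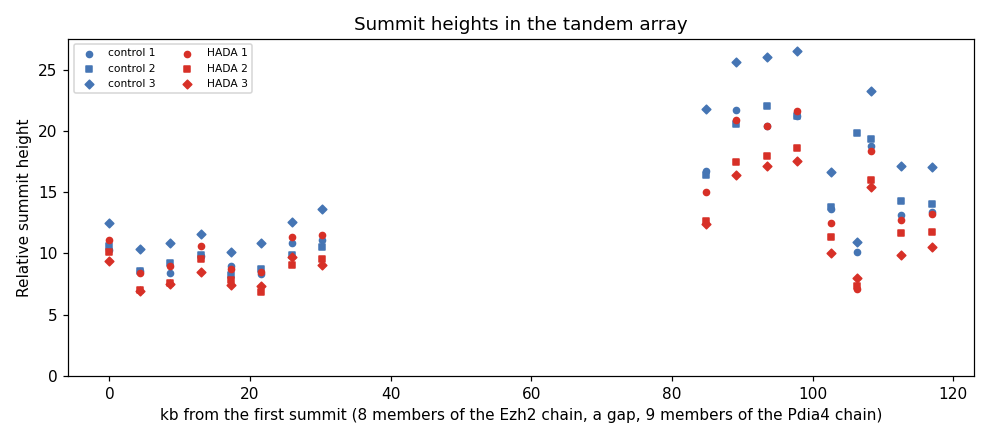
Relative height of the 17 members of the Ezh2 and Pdia4 chains in each library (blue control, red HADA, shape by replicate) against the distance in kb from the first summit. Summits are evenly spaced in the first chain, the gap holds unknown bases, and heights reach 26.5 in control 3.

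Peaks inside the spans of the chains that were not in all 6 libraries did not enter the rule. There were 40 such regions in 29 chains, with 19, 10 and 14 peaks in the control and 22, 17 and 18 in the HADA libraries. The groups overlapped, and the means of 14.3 ± 4.51 and 19 ± 2.65 peaks (SD, n = 3 each) gave a two-sided exact permutation p of 0.3, where 3 against 3 cannot go below 0.1. With −log10 q-values of at least 5 the groups were apart, at 12, 5 and 10 against 17, 14 and 13 (exact permutation p = 0.1), and with equal numbers of the strongest peaks they overlapped. Peaks in 3 HADA and 0 control libraries were found in 5 of the 40 regions (12.5%, against 11.6% of all 37285 incomplete regions), and the reverse in 3 (7.5%, against 3.00%).

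The tallest of the HADA-only regions was in Pik3ap1, between its members, with pileups of 181, 171 and 192 in the HADA libraries. The next was in Cd83, with 103, 101 and 110, and others lay in Grap2, Gucy2c and at Fabp5. Control-only regions lay in the Trib1, Smad3 and Ankdd1a chains, that of Trib1 with pileups of 55, 42 and 101. A missing peak shows only that none was listed in that library.

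The start of the gene that names a chain had a shared region within 3.0 kb in 38 of 47 cases, of which 4 were higher and 5 lower by limma (10.5% and 13.2%, against 19.3% and 12.8% of the shared regions that are not distal). The libraries are the same as those of the chains, so the values are given side by side. The Bach2 start was at 1.501 ± 0.37 (SE, limma adjusted p = 0.0184), the Ppp1r16b start at 0.79 ± 0.19 (SE, limma adjusted p = 0.0171), the Trib1 start at −1.09 ± 0.24 (SE, limma adjusted p = 0.0143), the Thbs1 start at −1.10 ± 0.34 (SE, limma adjusted p = 0.0355) and the Fyb1 start at −1.17 ± 0.22 (SE, limma adjusted p = 0.0104). The starts at Cmip and Lair1, an inhibitory receptor of leukocytes, were lower too, at −0.76 and −1.22, and the Ezh2 start was higher, at 0.46. At Fabp5 the start was higher in HADA while the chain was lower: heights at the start were 0.712, 0.582 and 0.580 (control) and 1.07, 1.04 and 1.12 (HADA), with 0.79 ± 0.16 (SE, limma adjusted p = 0.0120). For 12 called chains with a shared region at the start, 5 starts were called in the direction of the chain and 1, Fabp5, in the other. The starts of Ets1, Plek, Iqgap1 and Apba2 had no shared region.

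Members were set beside the other shared distal regions in features that the rule did not use, as a description without a test. Their median relative height was 0.977 against 0.536, and 72.5% lay in introns against 56.6%. The local background of members was 5.29 times the genome background of the library, against 1.74 at the other distal regions, and this held in every library, from 4.11 to 5.66 and from 1.33 to 1.76. A fold over local background therefore has a larger divisor at members. Both were also split at the members' median height, a coarse cut that does not match heights. The 90th percentile of height was 4.09 for members and 1.55 for the other distal regions. The 1824 other distal regions at or above the cut had a median difference of −0.41, with 20.5% higher and 42.2% lower. The 106 members at or above it had −0.33, with 13.2% and 35.8%, and include the 17 members of the chromosome 6 array, of which 1 was called. Below the cut the 6277 other distal regions had a median of −0.66, with 12.6% higher and 42.6% lower, and the 105 members −0.16, with 16.2% and 27.6%.

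PU.1 letters were found in 26.5% of members and 13.1% of the other distal regions, and still in 21.6% without the chromosome 6 array. E2A letters were in 21.8% against 15.3%. RUNX letters (TGTGGTT) were in 15.6% against 9.09%, but in 8.76% without the array, whose copies share them. C/EBP letters were in 9.48% of members and 10.96% of other distal regions. Calls among members with a set of letters are given beside the 14.7% higher and 31.8% lower of all members. With C/EBP letters, 2 of 20 members were higher and 9 lower (10% and 45%), and of the 888 other distal regions with these letters 9.35% and 53.8%, the medians being −0.56 and −1.001. With PU.1 letters, 6 of 56 members were higher and 12 lower (10.7% and 21.4%), and of the other distal regions with them 20.6% and 31.4%, with medians of −0.26 and −0.11. Only 42 of these 56 members lie outside the array, where 1 of 17 members was called, so the array lowers the PU.1 shares. With E2A letters 9 of 46 were higher and 12 lower (19.6% and 26.1%, against 18.2% and 42.2% of the other distal regions with them), and with KLF letters 5 of 48 and 12 of 48 (10.4% and 25%, against 12.3% and 49.1%). Only 31 of the 48 members with KLF letters lie outside the array, which lowers the KLF shares too. The other 12 sets of letters held at most 5 called members in 1 direction.

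The share of the signal that lay in members was lower in each HADA library than in any control library. The summed pileup of all shared regions lay in members to 1.28%, 1.30% and 1.42% in the control and 1.201%, 1.14% and 1.11% in the HADA libraries, with a difference that the design cannot call (−0.184 percentage points, n = 3 each, two-sided exact permutation p = 0.1, the smallest possible). With summit bases found once it was 0.779% and 0.629% on average. The median member stood above the median of other distal regions of its library by 0.84, 0.47 and 1.12 on the log2 scale in control and by 0.95, 1.00 and 0.96 in HADA. These overlapped (difference 0.16, n = 3 each, exact permutation p = 0.7). With summit bases found once the difference was 0.00475 (exact permutation p = 1), and without control 3 the groups were apart, at 0.31 (exact permutation p = 0.1, the smallest that 2 against 3 libraries can give).

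Near the thresholds of the rule, the widest gap inside a chain was 12179 bp and the narrowest next to a chain 13270 bp. The member nearest to a start lay 3011 bp from it, and the shared region closest to being distal within reach of a chain 2859 bp. The 122 chains of 3 regions had a median difference of −0.36, with 12.3% higher and 38.5% lower, and the 34 chains of 4 had −0.50, with 5.88% and 38.2%.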

How the data were processed

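ATAC-seq was carried out on white cells from mouse blood, 3 control and 3 HADA libraries. To make the files, the authors used Trimmomatic for trimming, Bowtie2 for alignment to GRCm39, Picard for duplicates and MACS2 for peaks, 1 library at a time. MACS2 options and tool versions are not given in the sources used here. The deposited peak lists hold, per peak, the fold of the summit pileup over local background (a ratio), its −log10 p-value, its −log10 q-value within the library and a score. The deposited score, which is the q-value times a constant, was left out, as were the sex chromosomes and scaffolds.

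The summit pileup and the local background were solved from the deposited fold and −log10 p-value of each peak, as a Poisson tail, and a solution was found for 100% of peaks in every library. The most frequent local background is the genome background, whose level limits precision. Pileups were set to log2, centred on the median shared region and compared with limma 3.58.1 (R 4.3.3, lmFit and eBayes, Benjamini-Hochberg adjustment over 23013 regions or 7208 chains, threshold 0.05). Single values of a library were put to an exact permutation test, two-sided, which cannot go below 0.1 here. Python 3.11.15, numpy 2.4.6, pandas 2.3.3 and scipy 1.17.1 were used. On simulated data for this comparison over 23013 regions, 151 of 200 regions changed by 2 on the log2 scale were recovered, with 9 unchanged regions called.

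Chains take the name of the protein-coding gene whose body holds most members, otherwise of the nearest start to the middle of the chain. This assigns no target. The rule for named chains took the 10 with most members, up to 10 per direction by p, those at genes of the marker lists, and those with members called both ways. The other chains, and members that were neither tallest nor of widest difference in their chain, were named after their values were seen, so that all 47 are accounted for. The members, lists and motifs were chosen with earlier results of these data known. Alternatives were other scalings, the rank of the fold, thinning, a −log10 q of at least 10, summit bases found once in the genome, an intensity trend, the replicate number as a block, and each library left out.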

Additional observations from a re-analysis of the deposited data

How the results depend on the processing

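Counts of calls moved with the scaling and with single libraries. Members called higher and lower, 31 and 67, were 49 and 44 under background scaling, 53 and 39 centred on shared distal regions, 8 and 11 by fold rank, and 20 and 47 of 135 with a −log10 q of at least 10. Leaving out 1 library gave 3 to 31 higher and 19 to 69 lower, the lowest of each without HADA 2. Chains called higher and lower, 2 and 14, were 8 and 6 under background scaling (17% and 12.8%, against 21.7% and 31.4% of all chains), 9 and 5 centred on distal regions (19.1% and 10.6%, against 23.3% and 29.8%), 0 and 0 by fold rank under limma, 1 and 16 of 43 with the q minimum, and 0 to 2 and 5 to 16 with 1 library left out. The thinned pileups, quantile normalization, unique summits and the intensity trend kept each of these counts within 1.5 times. The member level, 0.16, was −0.0422 with the q minimum, 0.00475 with summit bases found once and −0.0125 to 0.314 with 1 library left out, with the groups apart without control 3. With 1 library left out the share difference was −0.213 to −0.140 percentage points. That of the peaks inside the chains but not in all libraries was 2.5 to 7, the highest without control 1, where the groups were apart with HADA higher. These peaks differed by 5.67 with a −log10 q of at least 5 and by 0.667 with the same number of strongest peaks. The cause was not tested.

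Deviations from the group means correlated at −0.10, 0.09 and −0.38 between same-numbered libraries, and at −0.47 to 0.49 between differently numbered ones. With 3 libraries a group these values cannot decide whether the numbers pair the libraries, and the labels name no pairing. With the replicate block 19 members were higher and 61 lower, and 2 chains higher and 11 lower. A variance trend on chain size could not be fitted, since most chains hold 1 region.

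Of the chains not called, Agpat4 with unique summits and Ankdd1a and Sorl1 by chain median were called lower, Sorl1 also without control 2, and Ski by chain median higher. Chain differences changed sign as follows, among called chains at Itpkb, Iqgap1 and Plek, by fold rank alone. Under background scaling these were Inpp5d 0.30, Prkcq 0.19, Tmigd3 0.32, Lyn 0.31, Rps6ka1 0.37, Ubl3 0.34, Ezh2 0.19, Pdia4 0.0071, Gucy2c 0.0410, Lair1 0.17, Arid5b 0.26, Ago2 0.16, Ccnd3 0.38 and Dtx4 0.0064. Centred on distal regions they were Inpp5d 0.31, Prkcq 0.20, Tmigd3 0.33, Lyn 0.32, Rps6ka1 0.37, Ubl3 0.35, Ezh2 0.20, Pdia4 0.0145, Gucy2c 0.0483, Lair1 0.17, Arid5b 0.27, Ago2 0.16, Ccnd3 0.39 and Dtx4 0.0138. Quantile normalization gave Inpp5d 0.0022, Prkcq 0.0035, Tmigd3 0.0142, Lyn 0.14, Rps6ka1 0.17, Ubl3 0.10, Ezh2 0.19, Pdia4 0.23, Arid5b 0.15 and Ccnd3 0.0396. Fold rank gave, in normal scores, Inpp5d 0.0164, Itpkb 0.12, Tmigd3 0.10, Lyn 0.43, Bach2 −0.0195, Rps6ka1 0.0674, Ubl3 0.0851, Gucy2c 0.16, Iqgap1 0.0071, Sorl1 0.20, Ankdd1a 0.50, Arid5b 0.14, Plek 0.23, Prkch 0.0930, Syk 0.16, Grap2 −0.10 and Dtx4 0.0052. The q minimum gave Rps6ka1 0.25, Ubl3 0.27, Lair1 0.36, Cxcr5 −0.0226 and Ccnd3 0.0017, thinning Ccnd3 0.0135, and the chain median Tmigd3 0.0034, Ubl3 0.21, Arid5b 0.0466 and Ccnd3 0.13. With 1 library left out, Inpp5d ranged from −0.218 to 0.10, Tmigd3 from −0.177 to 0.0266, Rps6ka1 from −0.142 to 0.0713, Ubl3 from −0.103 to 0.0149 and Ccnd3 from −0.0901 to 0.0315, with the lowest value without control 2 and the highest without control 3.

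The rule itself gave 8 chains with 41 members at a gap of 5 kb and 93 with 433 at 20 kb. It gave 86 with 381 at 1 kb from a start, 28 with 126 at 5 kb, 171 with 805 for protein-coding starts, and 114 with 518 for peaks in at least 5 libraries.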
